A study of Rattus norvegicus with 12 samples.

Results

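The genes described here are a set of early-response factors measured in rat lung: the zinc-finger factors Egr1, Egr2 and Egr3, the orphan nuclear receptors Nr4a1, Nr4a2 and Nr4a3, the immediate early response genes Ier2 and Ier3, the serum response factor Srf and the EGR corepressor Nab2. They were chosen by name, with earlier results of these data known. Every probe set whose platform annotation names exactly 1 of these 10 genes was taken. This gave 16 probe sets of the 31099 on the array. Of these, 11 probe sets, for 9 of the 10 genes, passed a filter on low signal and were tested; Egr3 was left without a tested probe set.

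Lungs came from rats of a pair of inbred strains, Dahl Salt Sensitive (SS) and Brown Norway (BN). The treatment is ventilation: in each strain 3 lungs are labelled as HTV ventilated and 3 as control, which makes 4 groups of 3 arrays: SS HTV, SS control, BN HTV and BN control. The labels do not spell out HTV and give no time or tidal volume. The description of all 12 samples, controls included, speaks of room air with the word ventilation in brackets, so the labels leave unclear whether control rats were also ventilated, and each HTV minus control difference is read with that limit. The rats weighed 250 to 350 g, their age is not given in the sources used here, no allele beyond the strain background is named, and the lungs were flushed free of blood before the right lung was frozen for RNA. Arrays carry separate animal numbers, and an array's number below (1 to 3) only names it within its group; the values of a group are given in that order. In whole lung tissue, fewer cells of a type and less RNA per cell cannot be told apart.

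Immediate-early genes are switched on within minutes of a stimulus without new protein synthesis. In the textbook route for the EGR family, ERK signalling activates ternary complex factors that sit with SRF on CArG boxes in the gene's promoter; EGR proteins then bind GC-rich sites, and NAB corepressors, themselves EGR targets, limit their action. The NR4A receptors act without a known natural ligand and are regulated mainly through their own abundance, with cAMP signalling as a classic inducer. In lung, Egr1 is best known as a responder to injury, hypoxia and mechanical strain.

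Promoter windows were available from RefSeq on the build GRCr8 for 7 of the 10 genes; Egr3, Nr4a3 and Ier3 had no entry in the table. Each window holds 300 bases, 250 before the annotated start and 50 from it. The windows of the 5 genes below are shown because they carry the elements named in the preceding background: Egr1 at chr18:26736828-26737127 (plus strand), Egr2 at chr20:21054392-21054691 (minus strand), Nr4a1 at chr7:134259888-134260187 (plus strand), Ier2 at chr19:40399123-40399422 (plus strand) and Srf at chr9:21923826-21924125 (plus strand). Letters run 5′ to 3′ on the gene's strand, and capitals mark every match to a CArG box, an EGR site (GCGTGGGCG or GCGGGGGCG), the cAMP response element TGACGTCA or its short form TGACG, on either strand.
Egr1: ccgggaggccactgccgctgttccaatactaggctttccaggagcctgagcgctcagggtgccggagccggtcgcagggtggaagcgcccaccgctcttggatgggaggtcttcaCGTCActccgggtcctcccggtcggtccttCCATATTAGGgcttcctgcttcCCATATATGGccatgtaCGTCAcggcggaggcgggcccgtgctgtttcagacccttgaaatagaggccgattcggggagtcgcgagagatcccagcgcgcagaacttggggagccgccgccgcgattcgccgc
Egr2: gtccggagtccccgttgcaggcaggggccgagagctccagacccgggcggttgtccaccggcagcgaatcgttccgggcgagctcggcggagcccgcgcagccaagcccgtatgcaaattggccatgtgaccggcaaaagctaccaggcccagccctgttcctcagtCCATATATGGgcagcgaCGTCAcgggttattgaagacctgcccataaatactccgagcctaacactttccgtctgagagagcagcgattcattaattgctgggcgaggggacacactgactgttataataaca
Nr4a1: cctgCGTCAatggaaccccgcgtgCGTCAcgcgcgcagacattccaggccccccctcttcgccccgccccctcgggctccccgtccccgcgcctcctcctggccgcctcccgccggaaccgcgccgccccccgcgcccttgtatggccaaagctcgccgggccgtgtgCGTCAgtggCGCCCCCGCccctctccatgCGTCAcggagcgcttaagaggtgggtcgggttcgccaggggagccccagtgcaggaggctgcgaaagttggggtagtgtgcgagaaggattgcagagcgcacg
Ier2: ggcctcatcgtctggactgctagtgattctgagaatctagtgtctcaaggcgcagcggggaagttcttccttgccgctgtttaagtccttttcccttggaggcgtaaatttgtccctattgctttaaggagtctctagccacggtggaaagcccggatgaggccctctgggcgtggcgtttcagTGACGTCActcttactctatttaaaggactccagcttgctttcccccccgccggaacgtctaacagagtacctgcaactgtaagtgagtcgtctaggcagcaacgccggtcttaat
Srf: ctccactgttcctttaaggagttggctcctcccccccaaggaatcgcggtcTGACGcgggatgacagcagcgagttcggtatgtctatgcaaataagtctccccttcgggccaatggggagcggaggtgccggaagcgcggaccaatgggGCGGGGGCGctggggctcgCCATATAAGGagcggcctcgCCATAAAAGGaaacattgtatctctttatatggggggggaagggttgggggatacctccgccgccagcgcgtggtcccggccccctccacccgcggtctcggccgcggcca
Both Egr1 and Egr2 hold a CArG box, CCATATATGG, whose first base lies 83 bases before the start, and a short cAMP motif 66 bases before it. Egr1 has a second CArG box, CCATATTAGG, at 105 bases and a second short cAMP motif at 135. Srf, the factor that binds CArG boxes, carries a pair of them in its own window, at 81 and 61 bases, with an EGR site at 100 and a short cAMP motif at 199. No CArG box was found in the Nr4a1 window, which holds the short cAMP motif at 246, 226, 82 and 53 bases and an EGR site at 73. Ier2 holds the full cAMP response element at 66 bases, which contains the short motif on both strands. Nr4a2 holds 1 short motif 8 bases before its start, and Nab2 holds none of these elements. The NR4A response element AAAGGTCA was in none of the 7 windows. Over all 33469 windows, 1.64% hold a CArG box, 3.20% an EGR site, 1.43% the NR4A element, 1.83% the full cAMP element and 21.2% the short cAMP motif, which overlaps the full one by its letters. Among the 7 windows, 3 hold a CArG box, 2 an EGR site, 1 the full cAMP element and 6 the short motif. A match describes letters in these windows and shows no binding.

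**Figure D1:**
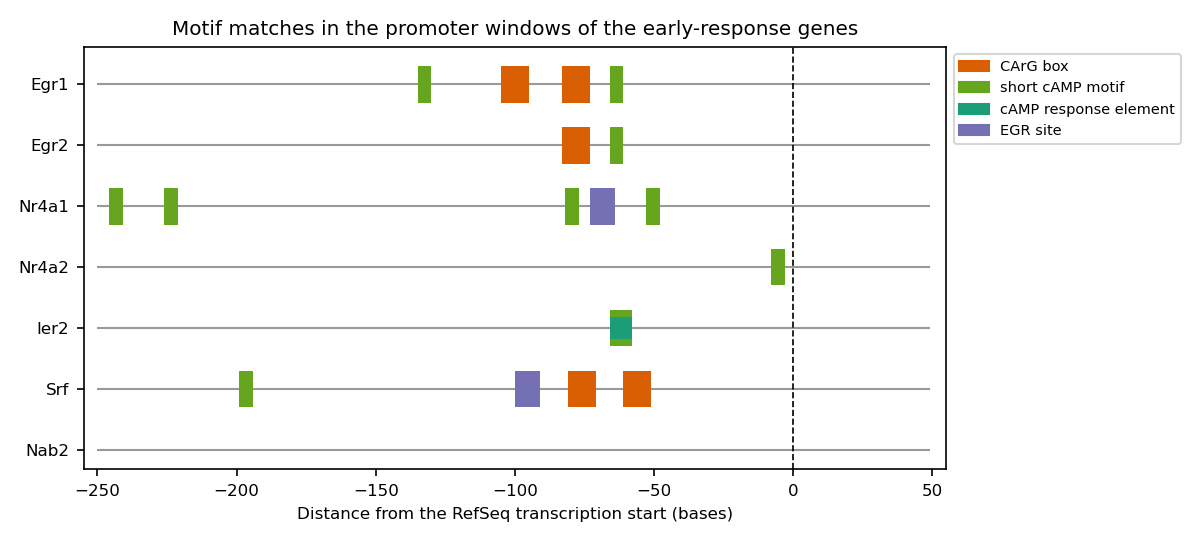
Matches to the searched motifs in the 7 promoter windows, drawn to scale, with distance from the RefSeq start in bases on the x axis, a row per gene, blocks coloured by motif and a dashed line at the start. Egr1 and Egr2 share a CArG box at 83 and a short cAMP motif at 66 bases before the start, and the Nr4a1 window holds 4 short cAMP motifs and no CArG box.

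Values are the deposited linear intensities, whose trimmed mean was 150 on each array, so their unit is arbitrary and levels were not compared between probe sets. Median intensity ran from 58.6 to 68.1 over the 12 arrays, and correlation between arrays from 0.883 to 0.980; SS control 3 stood apart from the other arrays on the third principal component. All 8 markers of alveolar type 2 cells, the surfactant-making cells of lung, were measured, with a summed intensity of 18131 to 27347 per array. Tests were made on log2(intensity + 16) with limma over all 18625 kept probe sets, with Benjamini-Hochberg adjustment and a threshold of 0.05. A difference is HTV minus control or SS minus BN, on that log2 scale, which understates changes of dim probe sets, and ± after it is its SE.

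HTV lungs had more of most of these transcripts in both strains. Of the 9 genes tested, 6 rose in SS lungs and 8 rose in BN lungs, and none fell past the threshold in either by limma. The BN count was 5 without BN HTV 1, without BN control 2 or without BN control 3. Across all 10554 genes tested, 3.88% rose and 4.11% fell in SS lungs, and 2.97% rose and 2.65% fell in BN lungs. The set was chosen with earlier results of these data known, so its counts beside these shares are a description. The median difference over the 9 genes was 1.13 in SS lungs and 1.43 in BN lungs, beside -0.01 and -0.03 over all genes. Egr1 and Nr4a1 moved furthest among the genes' representing probe sets: by size of the rise, Egr1 ranked 9 of 10554 in SS and 9 in BN lungs, and Nr4a1 ranked 16 and 18. Nr4a3 probe set 1369067_at rose more than Nr4a1, by 2.45 in SS and 2.46 in BN lungs, but was not ranked. Its mean log2 level of 6.55 was just under the 6.58 of 1393389_at, which represents Nr4a3. The 3 SS HTV arrays lay wholly above the 3 SS control arrays for 8 of the 9 genes, and the same held for 8 of 9 in BN lungs. Such non-overlap upward was found for 14.1% of all genes in SS lungs and 10.4% in BN lungs. Because the filter used the mean over all arrays, a gene dim in control lungs could be tested only through its HTV arrays: Nr4a3 probe set 1369067_at is one, with a control mean of 24.1 against the filter intensity of 42.2.

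**Figure D2:**
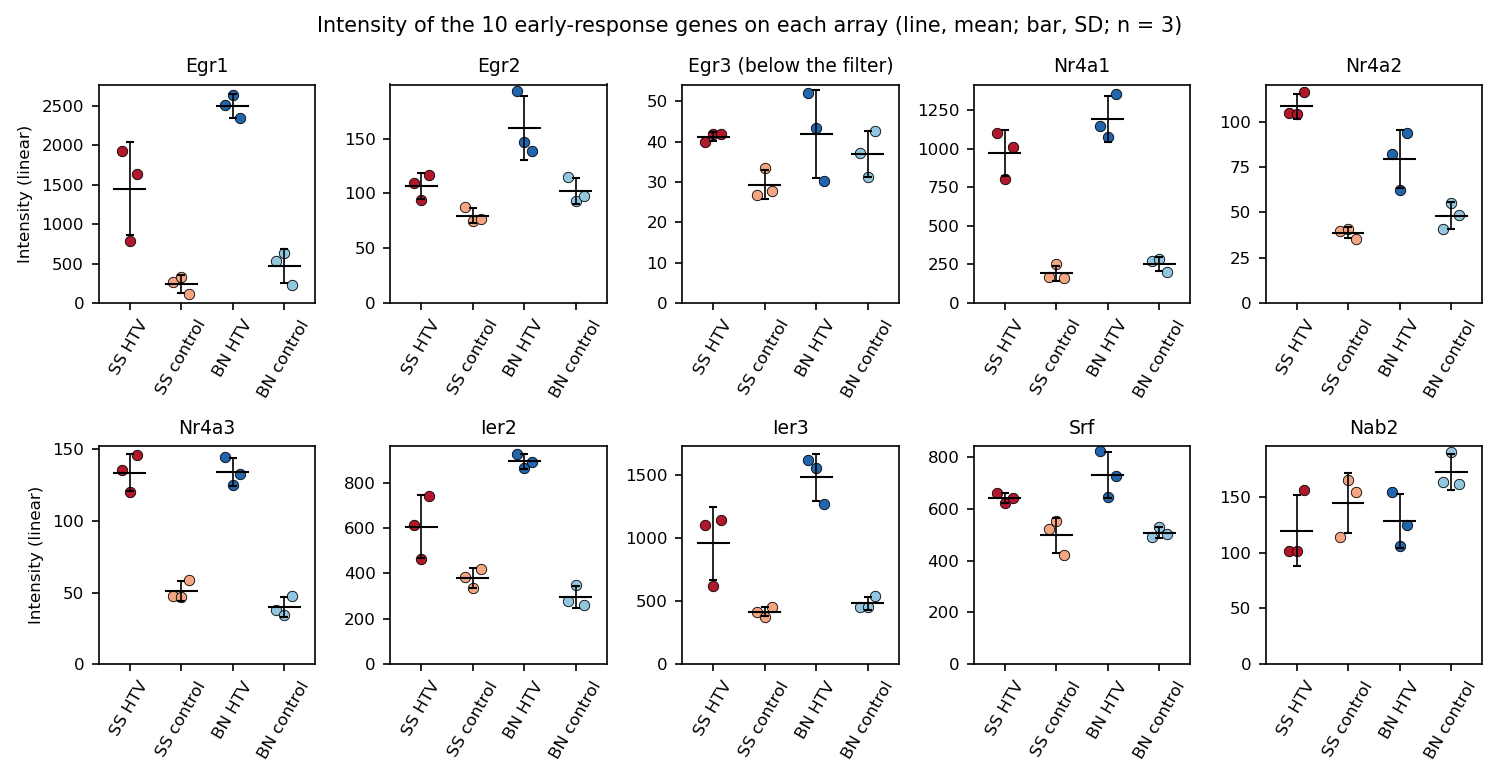
Linear intensity (y axis, arbitrary units, from 0, with its own scale in each panel) of each of the 10 genes' representing probe set on every array, in the groups SS HTV, SS control, BN HTV and BN control; points are arrays, lines are means and bars are SD (n = 3). Egr1 and Nr4a1 HTV points lie clear of the control points in both strains, Nab2 points overlap in SS lungs, and Egr3 is below the filter.

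**Figure D3:**
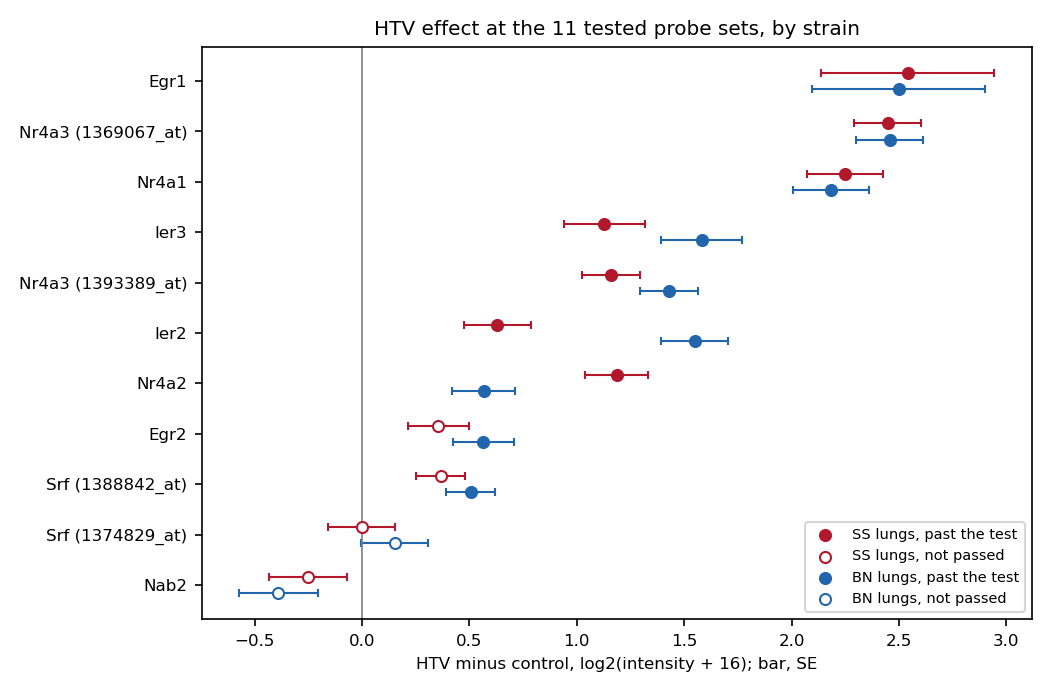
HTV minus control difference in log2(intensity + 16) (x axis) for the 11 tested probe sets (rows), in SS lungs (red) and BN lungs (blue), with bars for the SE and filled points for differences past the test. Egr1 stands at 2.54 in SS and 2.50 in BN lungs with the widest bars, Nr4a1 at 2.25 and 2.18, and Nab2 lies below 0 in both.

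Egr1, the family member that drives growth-factor, coagulation and matrix genes, had the largest difference among the representing probe sets, on the log2(intensity + 16) scale. Probe set 1368321_at read 1931.4, 791.5 and 1634.0 in SS HTV lungs, against 267.7, 331.3 and 117.7 in SS control lungs. The BN HTV readings were 2512.6, 2638.7 and 2345.0, against 536.6, 639.1 and 226.2 in BN control lungs. No HTV array reached down into the control range of its strain, although array SS HTV 2, at 791.5, was far below the other pair of SS HTV arrays. The difference was 2.54 ± 0.40 in SS lungs (limma adjusted p = 0.00236), a 5.82-fold rise in intensity + 16. In BN lungs it was 2.50 ± 0.40 (limma adjusted p = 0.00287), a 5.65-fold rise in intensity + 16. Egr1 had the largest SE of the 9 genes, and its control arrays alone spanned 117.7 to 331.3 in SS lungs and 226.2 to 639.1 in BN lungs.

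Egr2, a paralogue known from hindbrain, myelination and lymphocyte tolerance, changed far less. Its tested probe set 1387306_a_at read 109.6, 93.7 and 116.7 in SS HTV lungs, against 87.8, 74.7 and 76.6 in SS control lungs. BN HTV arrays read 193.4, 147.0 and 138.7, against 115.4, 92.9 and 97.8 in BN control lungs. Arrays did not overlap in either strain, but only the BN difference passed, at 0.57 ± 0.14 (limma adjusted p = 0.0354, up to 0.148 leaving out 1 array, without BN HTV 1); the SS difference was 0.36 ± 0.14 (limma adjusted p = 0.142). A dimmer Egr2 probe set, 1398266_a_at, read 24.6, 27.9 and 33.1 in SS HTV lungs, against 12.3, 3.1 and 3.2 in SS control lungs. In BN HTV lungs it read 29.5, 11.2 and 18.6, against 18.7, 41.0 and 34.0 in BN control lungs. Both Egr2 probe sets were thus higher in SS HTV arrays, while in BN lungs they differ in sign. With no filter the dim one gave 1.03 ± 0.23 in SS lungs (limma adjusted p = 0.0314) and -0.40 ± 0.23 in BN lungs (limma adjusted p = 0.441), all of its values lying below the filter intensity.

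Egr3, known from T cells and muscle spindles, had a mean just under the filter, at 36.9 against 42.2. Probe set 1369545_at read 39.9, 42.0 and 41.9 in SS HTV lungs, against 26.8, 33.5 and 27.7 in SS control lungs. BN HTV arrays read 52.0, 43.3 and 30.2, against 37.1, 31.3 and 42.7 in BN control lungs. SS arrays did not overlap and BN arrays did. With no filter neither difference passed, at 0.34 ± 0.16 in SS lungs (limma adjusted p = 0.259) and 0.11 ± 0.16 in BN lungs (limma adjusted p = 0.812).

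All 3 NR4A receptors rose in both strains. Nr4a1 (Nur77), known in macrophages, endothelium and T cells, rose in both strains by more than its control arrays spanned. Probe set 1386935_at read 1104.5, 807.2 and 1009.3 in SS HTV lungs, against 169.6, 249.5 and 162.3 in SS control lungs. The BN HTV readings were 1149.6, 1074.6 and 1357.1, against 274.7, 283.8 and 198.0 in BN control lungs. The lowest HTV array lay far above the highest control array in both strains. The differences were 2.25 ± 0.18 in SS lungs (limma adjusted p = 1.77e-05) and 2.18 ± 0.18 in BN lungs (limma adjusted p = 2.06e-05), that is 4.76-fold and 4.54-fold in intensity + 16.

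Nr4a2 (Nurr1), best known for its role in dopamine neurons and induced in macrophages by inflammatory stimuli, read 104.9, 104.1 and 116.4 in SS HTV lungs on probe set 1369007_at, against 39.9, 40.9 and 35.3 in SS control lungs. In BN HTV lungs it read 82.2, 62.1 and 93.8, against 40.5, 55.3 and 48.4 in BN control lungs. Groups did not overlap in either strain; in BN lungs the nearest arrays were 62.1 under HTV and 55.3 in controls. The rise was 1.19 ± 0.15 in SS lungs (limma adjusted p = 0.000405) and 0.57 ± 0.15 in BN lungs (limma adjusted p = 0.0403). The BN rise of Nr4a2 no longer passed in 10 of 12 fits that left out 1 array (limma adjusted p up to 0.146, without BN control 1). The dimmer probe set 1387410_at, below the filter, read 30.2, 37.7 and 43.1 in SS HTV lungs, against 25.2, 18.5 and 6.8 in SS control lungs. It read 25.3, 24.5 and 7.1 in BN HTV lungs, against 14.2, 9.2 and 10.4 in BN control lungs, and did not pass in either strain with no filter (limma adjusted p = 0.129 in SS and 0.608 in BN lungs).

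Nr4a3 (NOR1), a close relative of Nr4a1 that shares its DNA element, had 3 probe sets that differ in the size of the change. The representing one, 1393389_at, read 135.5, 120.2 and 145.8 in SS HTV lungs, against 47.7, 46.8 and 59.0 in SS control lungs. The BN HTV readings were 144.6, 125.3 and 132.8, against 38.0, 34.2 and 47.7 in BN control lungs. It rose by 1.16 ± 0.14 in SS lungs (limma adjusted p = 0.000271) and by 1.43 ± 0.14 in BN lungs (limma adjusted p = 4.95e-05). A second tested probe set, 1369067_at, showed a larger difference. It read 191.5, 181.6 and 228.8 in SS HTV lungs, against 16, 24.9 and 31.3 in SS control lungs. It read 221.3, 183.7 and 219.6 in BN HTV lungs, against 26.3, 24.8 and 23.1 in BN control lungs. On this probe set the highest control array read 31.3 and the lowest HTV array 181.6, and the difference was 2.45 ± 0.16 in SS lungs (limma adjusted p = 2.99e-06) and 2.46 ± 0.16 in BN lungs (limma adjusted p = 2.13e-06). Its control mean of 24.1 lay below the filter intensity of 42.2, so it was tested only through its HTV arrays. Its p-values are read with that limit. The third, 1369217_at, stayed below the filter: it read 60, 62.5 and 68.6 in SS HTV lungs, against 15.1, 27.5 and 29.6 in SS control lungs. BN HTV arrays read 44.1, 33.8 and 54.7, against 25.6, 33.3 and 34.5 in BN control lungs. With no filter that one passed in SS lungs at 1.01 ± 0.18 (limma adjusted p = 0.0101) and not in BN lungs at 0.34 ± 0.18 (limma adjusted p = 0.393).

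Both IER genes rose in both strains. Ier2, a short nuclear protein of the earliest response, read 614.0, 462.5 and 742.4 in SS HTV lungs on probe set 1372389_at, against 386.2, 334.6 and 421.1 in SS control lungs. In BN HTV lungs it read 926.7, 862.8 and 890.4, against 277.3, 351.4 and 262.5 in BN control lungs. SS HTV and SS control arrays were close (462.5 against 421.1 at the nearest), whereas no BN HTV array was below 862.8. The rise was 0.63 ± 0.16 in SS lungs (limma adjusted p = 0.0273) and 1.55 ± 0.16 in BN lungs (limma adjusted p = 8.36e-05). The SS rise of Ier2 did not pass without SS HTV 1, SS HTV 3, SS control 1 or SS control 2 (limma adjusted p up to 0.110).

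Ier3 (IEX-1), a stress-induced regulator of cell survival and NF-kB signalling, read 1108.2, 624.6 and 1144.9 in SS HTV lungs on probe set 1388587_at, against 417.2, 379.1 and 451.1 in SS control lungs. BN HTV arrays read 1616.5, 1557.0 and 1272.0, against 454.2, 455.7 and 539.4 in BN control lungs. Every HTV array was above every control array of either strain. Ier3 rose by 1.13 ± 0.19 in SS lungs (limma adjusted p = 0.00315) and by 1.58 ± 0.19 in BN lungs (limma adjusted p = 0.000302).

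Srf, the factor upstream of Egr1 that also drives actin and contractile genes, showed a small difference. Its brightest probe set 1388842_at read 660.4, 622.1 and 640.9 in SS HTV lungs, against 520.0, 550.9 and 420.2 in SS control lungs. The BN HTV readings were 821.1, 644.3 and 726.1, against 490.0, 529.0 and 503.8 in BN control lungs. Arrays did not overlap in either strain, and the difference was 0.37 ± 0.12 in SS lungs (limma adjusted p = 0.0704) and 0.51 ± 0.12 in BN lungs (limma adjusted p = 0.0211), so the BN rise alone passed. The other tested Srf probe set, 1374829_at, read 63.7, 60 and 59.3 in SS HTV lungs, against 74.4, 58.8 and 51.6 in SS control lungs. It read 86.2, 89.1 and 87.4 in BN HTV lungs, against 97.4, 60.6 and 77.2 in BN control lungs, and its arrays overlapped in both strains (difference 0.00, limma adjusted p = 0.997 in SS lungs, and 0.15, limma adjusted p = 0.649 in BN lungs). The remaining Srf probe set, 1395378_at, lay between 16.6 and 27.6 on all 12 arrays, below the filter. The rise of Srf therefore rests on 1 of its 3 probe sets, and it did not pass in BN lungs without BN HTV 1 or without any 1 of the 3 BN control arrays (limma adjusted p up to 0.101).

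Nab2, the corepressor that binds EGR proteins, was the only one of the 9 tested genes with a negative difference. Probe set 1374925_at read 101.6, 101.5 and 156.1 in SS HTV lungs, against 113.8, 165.3 and 154.1 in SS control lungs. In BN HTV lungs it read 154.1, 106.2 and 124.6, against 163.5, 190.2 and 161.2 in BN control lungs. SS arrays overlapped, whereas the 3 BN HTV arrays all lay below the BN control arrays, as did those of 16.2% of all genes. Neither difference passed, at -0.25 ± 0.18 in SS lungs (limma adjusted p = 0.41) and -0.39 ± 0.18 in BN lungs (limma adjusted p = 0.254).

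Averaged over the strains, 8 of the 9 genes rose (6.83% of all genes tested did), and Nab2 was at -0.32 ± 0.13 (limma adjusted p = 0.112). In that average Egr1 stood at 2.52 ± 0.29, Nr4a1 at 2.22 ± 0.13 and the representing Nr4a3 probe set at 1.29 ± 0.10. The smallest rises were those of Srf at 0.44 ± 0.08 (limma adjusted p = 0.00289) and Egr2 at 0.46 ± 0.10 (limma adjusted p = 0.00797). This comparison shares its arrays with both single-strain comparisons.

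Among HTV lungs, 3 of the 9 genes were lower in SS than in BN, and none was higher past the threshold; 3.18% of all genes tested were lower and 3.94% higher. Ier2 differed by -0.57 ± 0.16 (limma adjusted p = 0.0397), with SS HTV arrays at 462.5 to 742.4 and BN HTV arrays at 862.8 to 926.7. Ier3 differed by -0.66 ± 0.19 (limma adjusted p = 0.0469), at 624.6 to 1144.9 in SS HTV lungs and 1272.0 to 1616.5 in BN HTV lungs. Egr2 differed by -0.51 ± 0.14 (limma adjusted p = 0.0442), at 93.7 to 116.7 in SS HTV lungs and 138.7 to 193.4 in BN HTV lungs. All 3 stood near the threshold, and none passed without array SS HTV 2, without SS control 1, without BN HTV 1 or without BN HTV 2. Without SS HTV 2 the sizes shrank as well, to -0.38 for Ier3, -0.40 for Ier2 and -0.43 for Egr2. Egr1 arrays did not overlap either, the 3 SS HTV arrays being lower, but its difference of -0.87 ± 0.40 did not pass (limma adjusted p = 0.214) and was -0.49 without SS HTV 2. Nr4a2 was the one gene whose SS HTV arrays all lay above the BN HTV arrays, at 104.1 to 116.4 in SS HTV lungs and 62.1 to 93.8 in BN HTV lungs (0.40 ± 0.15, limma adjusted p = 0.121). Non-overlap between the strains' HTV arrays was found for 12.4% of all genes downward and 15.9% upward. The remaining differences were smaller, at -0.29 for Nr4a1, -0.18 for Srf, -0.10 for Nab2 and -0.01 for Nr4a3.

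**Figure D4:**
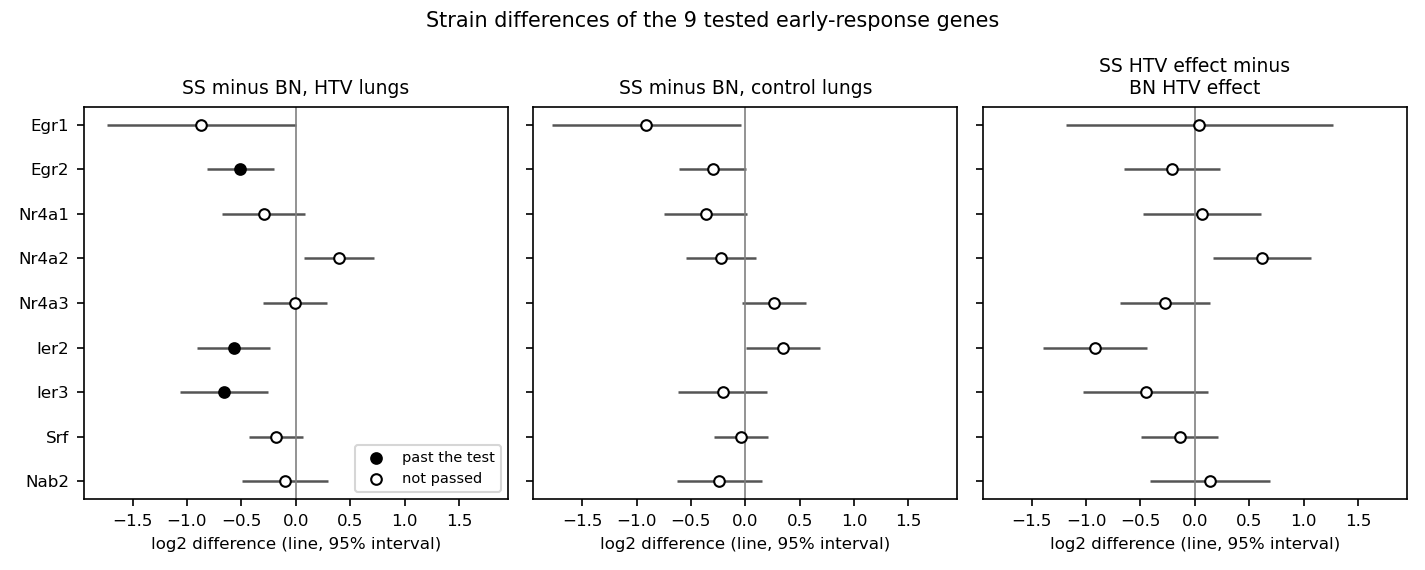
SS minus BN difference in log2(intensity + 16) (x axis) for the 9 tested genes (rows) in HTV lungs and in control lungs, and the SS minus BN difference in the HTV effect, with lines for the 95% interval and filled points for differences past the test. Ier2, Ier3 and Egr2 passed in HTV lungs, and no gene passed in the other 2 panels.

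In control lungs the strains did not differ past the threshold for any of the 9 genes by limma (10.9% of all genes tested did), and 2 of the 9 had an unadjusted p under 0.05, as did 27.1% of all genes. Egr1 was at -0.91 ± 0.40 (limma adjusted p = 0.154), with SS control arrays at 117.7 to 331.3 and BN control arrays at 226.2 to 639.1. Ier2 was at 0.35 ± 0.16 (limma adjusted p = 0.163), at 334.6 to 421.1 in SS control lungs and 262.5 to 351.4 in BN control lungs. Both pairs of ranges overlap. Leaving out 1 array, the Egr1 difference ran from -1.35 to -0.50, the latter without SS control 3, and never passed (lowest limma adjusted p = 0.0505). The SS control arrays all lay below the BN control arrays for 2 of the 9 genes, as for 16.4% of all genes. These were Egr2, at 74.7 to 87.8 in SS control lungs and 92.9 to 115.4 in BN control lungs, and Ier3, at 379.1 to 451.1 in SS control lungs and 454.2 to 539.4 in BN control lungs. Both were also among the 3 genes called lower in SS HTV lungs. The other differences lay between -0.36 for Nr4a1 and 0.27 for Nr4a3.

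A test of whether the HTV effect itself differed between the strains passed for 0 of the 9 genes by limma and for 0% of the 10554 genes tested; 2 of the 9 had an unadjusted p under 0.05, as did 8.54% of all genes. For Ier2 the SS effect minus the BN effect was -0.92 ± 0.22 (95% interval -1.40 to -0.44, limma adjusted p = 0.528). For Nr4a2 it was 0.62 ± 0.21 (95% interval 0.17 to 1.07, limma adjusted p = 0.568). For Nr4a1 the interval ran from -0.47 to 0.61 and for Egr1 from -1.19 to 1.27, so for Egr1 a difference in effect of about 1 log2 unit in either direction was not detectable with 3 arrays per group. Ier3 lay between, at -0.45 (95% interval -1.03 to 0.12).

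Array SS HTV 2 had the lowest value of the 3 SS HTV arrays for all 9 genes, and the mean deviation of the 9 genes from their 12-array means was 0.12 there, against 0.49 and 0.58 on the other SS HTV arrays. BN HTV arrays stood at 0.82, 0.61 and 0.70. SS control arrays stood at -0.64, -0.55 and -0.74 and BN control arrays at -0.45, -0.35 and -0.58, so the highest control array, at -0.35, lay below the lowest HTV array. Once group means were removed, Egr1 and Nr4a1 still correlated across the 12 arrays (r = 0.81, and 0.95 before removal), and the 36 pairs among the 9 genes had a median r of 0.30, with a range from -0.48 to 0.81. These arrays share scaling and group structure, and the correlations are a description.

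Neutrophil markers moved with HTV as well. Of 12 listed markers 8 were measured, of which 5 rose in SS lungs and 6 in BN lungs, with a median difference of 2.12 and 2.21. Their summed intensity was 5793 to 9477 in SS HTV lungs and 1986 to 2415 in SS control lungs. It was 3135 to 12311 in BN HTV lungs and 1175 to 2505 in BN control lungs. None of the measured markers was at 0. Camp lay below the filter, and for Mpo and Elane no probe set names that gene alone. Mmp9 read 1.9 to 19.3 in SS control and 4 to 15 in BN control lungs, below the filter intensity of 42.2. It was therefore tested only through its HTV arrays. Cxcr2 control arrays, at 28.9 to 43.9 in SS and 17.1 to 49.4 in BN lungs, were near or below that intensity. The counts and medians of the neutrophil markers are read with that limit. By array, the markers' mean deviation was 1.40, 0.66 and 1.33 in SS HTV lungs, lowest on the same array as the early-response genes. In BN HTV lungs it was 1.69, 1.47 and -0.42. Array BN HTV 3 had the lowest neutrophil markers of the HTV arrays, and its early-response genes stood at 0.70. The part of neutrophils in the rise was not tested in either strain. Of other cell types, 0 of 7 macrophage, 0 of 8 alveolar type 2 and 0 of 4 airway club and ciliated markers passed by limma in either strain, and 0 had an unadjusted p under 0.05. Likewise 0 of 9 endothelial, 0 of 5 alveolar type 1, 0 of 5 smooth muscle and 0 of 8 cardiac muscle markers passed by limma in either strain, with at most 2 of a list at an unadjusted p under 0.05. In the average of the strains 1 endothelial marker rose and 1 alveolar type 1 marker fell past the threshold. No smooth muscle, cardiac muscle, macrophage, alveolar type 2 or airway marker passed in that average. T and NK cell markers fell for 3 of 11 in SS lungs, 1 of 11 in BN lungs and 5 of 11 in the average of the strains. Of 4 red cell and platelet markers, 1 rose in SS lungs, 0 rose by limma in BN lungs (2 at an unadjusted p under 0.05) and 3 rose in the average, with median differences of 0.89 in SS and 0.97 in BN lungs. Their summed intensity was 3368 to 5148 in SS HTV and 1181 to 5152 in SS control lungs, and 2773 to 4369 in BN HTV and 827 to 2924 in BN control lungs. The part of these markers in the rise was not tested. Between the strains' HTV lungs, summed endothelial markers were 10054 to 12003 in SS and 12742 to 13578 in BN, and summed cardiac muscle markers were 176 to 1151 in SS and 890 to 3882 in BN. Both were lower in SS control lungs as well. Summed endothelial markers were 10299 to 10882 in SS control and 13558 to 14067 in BN control lungs. Cardiac muscle markers were at 128.5 to 538 and 1195 to 2620 there. Summed T and NK cell markers went the other way, at 1291 to 1321 in SS HTV and 847 to 1136 in BN HTV lungs. The mean deviation of macrophage markers was also higher in SS HTV lungs (0.17 to 0.27) than in BN HTV lungs (-0.26 to -0.19). Their summed intensities overlapped, at 5024 to 6362 in SS HTV and 5157 to 6015 in BN HTV lungs. The log2 ratio of 5′ to 3′ beta-actin signal was -1.01 to -0.39 in SS HTV and -1.35 to -1.15 in BN HTV lungs; with this ratio as a covariate none of the 3 strain differences in HTV lungs passed, at -0.58 ± 0.17 for Egr2, -0.46 ± 0.18 for Ier2 and -0.63 ± 0.23 for Ier3. Without the ratio these differences were -0.51, -0.57 and -0.66, with smaller SE. The ratio did not overlap between SS HTV and BN HTV arrays, so its part cannot be told apart from that of strain. The part of the endothelial, cardiac, T and NK cell and macrophage markers in the strain differences was not tested.

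**Figure D5:**
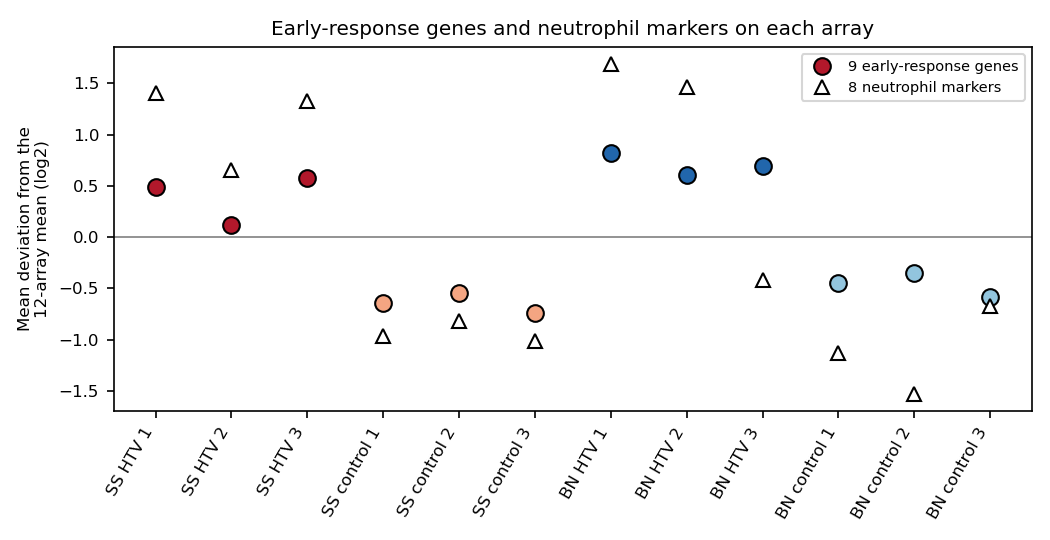
Mean deviation from the 12-array mean (y axis, log2) of the 9 tested early-response genes (circles, coloured by group) and of the 8 measured neutrophil markers (open triangles) on each of the 12 arrays (x axis). Circles of all HTV arrays lie above 0, the lowest being SS HTV 2 at 0.12, and on BN HTV 3 the triangle is at -0.42 while the circle is at 0.70.

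Other immediate-early genes moved in the same comparisons. Of 21 measured genes of that list, 11 rose and 1 fell in SS lungs, and 14 rose and 1 fell in BN lungs; the list medians were 0.61 and 0.81, beside -0.01 and -0.03 over all genes. Fos, the AP-1 subunit that like Egr1 is a classic SRF target, rose by 1.33 ± 0.14 in SS lungs and by 1.94 ± 0.14 in BN lungs. Atf3, a stress-induced CREB-family factor, rose by 2.45 ± 0.27 in SS lungs and by 2.96 ± 0.27 in BN lungs. Maff rose by 1.81 and 1.75, and Csrnp1 by 1.83 and 2.36, in SS and BN lungs. The gene that fell in both was Klf2, a flow-responsive endothelial factor, at -1.46 ± 0.27 in SS lungs and -1.23 ± 0.27 in BN lungs; it was chosen for mention after its values were seen.

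Relatives and cofactors of these factors were measured too. Of 11 such genes, 0 passed by limma in SS lungs and 0 in BN lungs (3 at an unadjusted p under 0.05 in each), with medians of 0.09 and 0.06. Averaged over the strains, Fhl2, a cofactor of SRF, rose by 0.49 ± 0.12 (limma adjusted p = 0.0133) and Rxrb, a nuclear receptor that pairs with others, fell, at -0.36 ± 0.11 (limma adjusted p = 0.0367). Nab1, the relative of Nab2, and Elk4, a ternary complex factor, did not pass (0.15 ± 0.08 each).

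On the list of ERK and cAMP signalling and its feedback, 3 of 12 measured genes rose and 2 fell in SS lungs, and 3 rose and 0 fell by limma in BN lungs, where 1 was lower at an unadjusted p under 0.05. Crem, whose ICER product is a cAMP-induced repressor, rose by 1.58 ± 0.19 in SS lungs and by 1.12 ± 0.19 in BN lungs. Dusp5, an ERK phosphatase, rose by 0.90 ± 0.23 in both. Dusp2, another phosphatase of ERK, was at 0.38 ± 0.17 in SS lungs (limma adjusted p = 0.193) and rose by 0.75 ± 0.17 in BN lungs. Spry2, a feedback inhibitor of receptor signalling, fell by 1.04 ± 0.18 in SS lungs and was at -0.34 ± 0.18 in BN lungs (limma adjusted p = 0.333).

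Of 13 measured genes reported elsewhere as EGR1 targets, 5 rose in SS lungs (0 fell by limma, and 0 were lower at an unadjusted p under 0.05), and 4 rose and 2 fell in BN lungs. F3, tissue factor, the starter of coagulation, rose by 1.45 ± 0.21 in SS lungs and by 1.67 ± 0.21 in BN lungs. Ptgs2, the inducible cyclooxygenase, rose by 1.26 ± 0.27 and 1.77 ± 0.27, Plaur, the urokinase receptor, by 1.27 ± 0.22 and 1.03 ± 0.22, and Areg, an EGF receptor ligand, by 1.32 ± 0.24 and 1.63 ± 0.24 in SS and BN lungs. The pair that fell in BN lungs was Pdgfa at -0.47 ± 0.13 (limma adjusted p = 0.0484) and Plau at -0.56 ± 0.14 (limma adjusted p = 0.0355), both named after their values were seen. The list's median was 0.29 in SS lungs and 0.09 in BN lungs.

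Of 13 measured cytoskeletal targets of SRF, 0 passed by limma in SS lungs (3 at an unadjusted p under 0.05) and 1 rose in BN lungs, with medians of 0.13 and 0.18. That one was Ccn1, a matricellular protein, at 1.54 ± 0.22 in BN lungs (limma adjusted p = 0.00147) and 0.38 ± 0.22 in SS lungs (limma adjusted p = 0.308). Acta2, smooth muscle actin, was at 0.52 ± 0.20 in SS lungs and 0.32 ± 0.20 in BN lungs, and Myl9, a myosin light chain, at 0.13 ± 0.13 and 0.25 ± 0.13, none of which passed. Zyx, a focal adhesion protein, passed only in the average of the strains, at 0.39 ± 0.11 (limma adjusted p = 0.0284).

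The genes outside the set whose levels across the 12 arrays were most like Egr1 were Mcam (r = 0.98), Cebpb (0.97), Rela (0.96), Smad1 (0.96) and Mtmr1 (0.96). Those most like Nr4a1 were Gem, Mtmr1, Yrdc, Il4r and Smad1, each at r = 0.98. Mtmr1 and Smad1 were on both lists. After group means were removed, Mcam correlated with Egr1 at 0.87, and Smad1 at 0.82 with both Egr1 and Nr4a1, while Gem, Yrdc and Il4r fell to between 0.34 and 0.42 with Nr4a1. The genes were picked by r over these same arrays, which includes the spread within groups. A high r after removal is therefore partly set by that choice. These r values are Pearson correlations of log2(intensity + 16) over 12 arrays in 4 groups.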

How the data were processed

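Per the labels' protocols, 6 µg of total lung RNA was labelled with biotin for Affymetrix rat arrays. The authors deposited linear intensities per probe set, and MAS5 is named per the submitters' processing notes; its version is not given in the sources used here. Trimmed at the 2nd and 98th percentile, every array had a mean of 150, so no further scaling was applied. Detection calls were not used.

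Of 31099 probe sets, 57 controls were left out. The platform annotation names 1 gene for 20826 of the others, several for 436 and none for 9780; genes were named only where it names 1. Intensities became log2(intensity + 16). Probe sets whose mean reached the 40th percentile (42.2) were kept: 18625, for 10554 genes. The kept probe set with the highest mean log2 level stands for a gene. limma 3.58.1 in R 4.3.3 (lmFit, eBayes with trend) fitted 4 group means over 12 arrays with 8 residual degrees of freedom and Benjamini-Hochberg adjustment over all kept probe sets. Values for probe sets below the filter come from the same fit with no filter. The p-values reflect only the spread between these arrays, whose number limits the precision.

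The members, gene lists and marker lists were chosen with earlier results of these data known. One listed neutrophil marker is not reported here. All members are named, with up to 4 genes of each list by smallest adjusted p in the average of the strains and the 5 genes most like Egr1 and Nr4a1 by Pearson correlation. On simulated data for SS lungs over 18625 probe sets, the fit recovered 77% of 100 probe sets changed by 1 log2 unit and 21% of 100 changed by 0.5. Only these simulated probe sets differed between groups, whereas 1502 were called in the measured SS comparison. The shares recovered need not hold for the measured data. Alternatives were the pseudocount, filter, normalization, intensity trend, array weights, arrays in the fit, beta-actin ratio, rule for several probe sets, and leaving out each array.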

Additional observations from a re-analysis of the deposited data

How the results depend on the processing

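The rises of Egr1, Ier3, Nr4a1 and Nr4a3 passed under every alternative that kept them, in both strains, as did Nr4a2 in SS lungs and Ier2 in BN lungs. In SS lungs Ier2 no longer passed with only the arrays compared (limma adjusted p = 0.0779) or without SS HTV 1, SS HTV 3, SS control 1 or SS control 2 (up to 0.110). The SS count was 4 with the 60th-percentile filter, which left 7 genes to test, and 5 to 6 otherwise. In BN lungs the count of 8 became 5 without BN HTV 1, BN control 2 or BN control 3 (range 5 to 8 leaving out 1 array), the genes lost being Egr2, Nr4a2 and Srf; it was 6 with no filter, 6 with only the arrays compared and 6 with the 60th-percentile filter, and 7 with the mean of a gene's probe sets. Averaged over the strains it was 6 with the 60th-percentile filter, which left 7 genes, and 8 to 9 leaving out 1 array; the ninth was Nab2 without SS HTV 3 (-0.41, limma adjusted p = 0.0408). The 3 strain differences in HTV lungs became 0 with no filter, with only the arrays compared and with the beta-actin ratio as a covariate, 1 with quantile normalization and 1 with no intensity trend, and 0 to 3 leaving out 1 array. Their sizes were the same with no filter and with only the arrays compared (-0.51 for Egr2, -0.57 for Ier2 and -0.66 for Ier3), and with the beta-actin ratio they were -0.58, -0.46 and -0.63; leaving out SS HTV 2 brought Ier3 to -0.38.

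Some differences that never passed changed sign under an alternative. For SS minus BN in HTV lungs, Nr4a3 became 0.025 with the beta-actin ratio and ran from -0.063 to 0.062 leaving out 1 array, and Nab2 from -0.28 to 0.026. In control lungs Srf became 0.059 with median centring and 0.058 with array weights, and ran from -0.11 to 0.075 leaving out 1 array. In the difference between the strains' HTV effects, Egr1 became -0.057 with a pseudocount of 64, -0.054 with median centring, -0.56 with array weights and -0.041 with the beta-actin ratio, running from -0.37 to 0.48 leaving out 1 array; Nr4a1 became -0.028 with median centring and -0.17 with array weights, running from -0.038 to 0.25; and Nab2 ran from -0.045 to 0.26. The cause was not tested.

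Over all probe sets, the calls numbered 630 to 2098 in SS lungs (1502 as reported), 540 to 1658 in BN lungs (1084) and 2189 to 3895 in the average (2930). They numbered 581 to 2200 between strains in HTV lungs (1535), 744 to 4090 in control lungs (2281) and 0 to 1 for the difference between effects (0). The range for the average leaves out the mean of a gene's probe sets, which gave 1703 calls that are not single probe sets. Median centring changed the share of higher calls to 36.2% in SS lungs (48.5% as reported), 60.8% in BN lungs (50.9%) and 68.0% between strains in control lungs (47.7%). No paired analysis was possible because the groups share no replicate numbers. Detection calls were not used, so the distance of the dim Egr2, Egr3 and Nr4a probe sets from background is unknown.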
